A study of Gallus gallus with 4 samples.

Results

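CTCF sites that were called in non-induced erythroid HD3 cells and in lymphoid DT40 cells, but not in HD3 cells after induction of differentiation, numbered 2259 on chicken chromosomes 1, 3 to 10, 12 to 19 and 21 to 28. Overlapping peaks of the 3 deposited lists were merged into sites, and a site belonged to this class when the non-induced HD3 list and the DT40 list each contributed a peak and the induced HD3 list contributed none. The 2259 sites were 20.8% of the 10842 sites on these chromosomes, which is itself the background of the rule (20.8%), and the series held 15733 sites on all sequences. The sites were selected on the peak calls of the 3 lists, and hence on the caller scores behind those calls, so the class size and the scores are descriptions.

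The study mapped CTCF by chromatin immunoprecipitation and sequencing (ChIP-seq) in 2 chicken cell lines, with 1 CTCF library per condition. HD3 cells are chicken erythroblasts that avian erythroblastosis virus has transformed; the labels give them as a single clone, A6 of the line LSCC. DT40 is a B-lymphoid line, grown in the same medium with added β-mercaptoethanol. HD3 cells were taken without induction or after treatment with the kinase inhibitor iso-H-7 in HEPES-buffered medium at a raised temperature; DT40 cells had no such treatment, and all 3 libraries used the same rabbit antibody, raised to residues 86 to 233 of the chicken protein. The deposited lists held 8768 peaks for non-induced HD3, 4820 for induced HD3 and 13574 for DT40. Without read counts in the lists the depth of each library is unknown. A site missing from the induced list was not called there, which does not show that it was unoccupied. No library had a replicate, so no difference below has a test. Intervals are 95% intervals for counting error only, and they treat sites as independent.

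CTCF is a zinc finger protein that binds DNA through a long motif, blocks contact between enhancers and promoters at insulators, and halts cohesin at the anchors of chromatin loops. Many of its sites are occupied in most cell types of an animal, while weaker sites differ more between cell types. In chicken erythroid cells it is known from the insulator upstream of the β-globin genes. Sites are given by galGal4 coordinates counted from 1; genome sequence and gene models of that build were not used here.

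The sites of this class were simple in structure. Of the 2259 sites, 2225 consisted of 1 HD3 peak and 1 DT40 peak, 34 of 1 HD3 peak and 2 DT40 peaks, and 0 of more than 3 peaks. The HD3 peak had a median length of 1207 bp (quartiles 1145 and 1268), and the DT40 peak of 692 bp (quartiles 620 and 774). The DT40 peak lay wholly inside the HD3 peak at 96.4% of the sites (interval 95.5 to 97.1), and was longer than it at 21 sites. Midpoints of the paired peaks were a median of 40.5 bp apart (quartiles 19 and 77), and 83.4% of the pairs (interval 81.8 to 85.0) lay within 100 bp. At the 2971 sites called in all 3 lists on the same chromosomes the median distance was 38 bp, with 84.6% within 100 bp (interval 83.3 to 85.9). The DT40 peak lay wholly inside the HD3 peak at 97.4% of those sites (interval 96.7 to 97.9). By position within the site, pairs of erythroid and lymphoid peaks were therefore placed much alike with and without a call after induction.

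Scores of the class were low to middling in both lists. The score is the value that the authors' peak caller gave each peak. Its scale is not stated, and sites are ranked by it only within a list. A limit of 100 is also applied to more than 1 list, and whether it means the same in each is unknown. The median HD3 score was 83.98 (quartiles 64.6 and 113), from 50.03 to 363, and the whole non-induced list ran up to 2071. The median DT40 score was 104.65 (quartiles 74.6 and 149), from 50 to 1181. At sites of all 3 lists the medians were 187 in HD3 and 224 in DT40. When the sites called in non-induced HD3 were divided into 10 classes of equal size by score, the class made up 44.7% of the lowest (interval 41.0 to 48.4), 49.6% of the fourth (45.9 to 53.4), 26.3% of the seventh (23.1 to 29.7) and 0.425% of the highest (0.088 to 1.24, 3 of 706 sites). In DT40 it was commonest in the middle of the list, with 21.9% of the lowest class (interval 19.2 to 24.7), 35.1% of the sixth (31.9 to 38.3) and 4.18% of the highest (2.96 to 5.71). A score of at least 100 in both lists was reached by 518 sites of the class (22.9%, interval 21.2 to 24.7), against 75.9% of the sites in all 3 lists (interval 74.3 to 77.4).

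**Figure D1:**
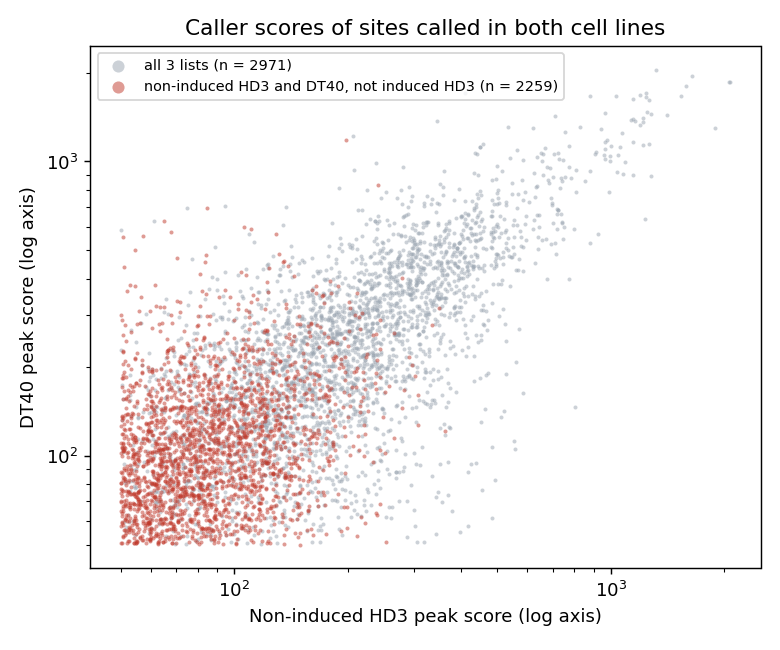
Each point is a site called in non-induced HD3 and DT40, placed by its non-induced HD3 score (x, log axis) and its DT40 score (y, log axis), for the 2259 sites without an induced HD3 call and the 2971 sites of all 3 lists. Sites without an induced call reach an HD3 score of 363, while sites of all 3 lists reach 2071.

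The erythroid and lymphoid scores of the class were only loosely related. Spearman's rho between them was 0.26 across the 2259 sites and 0.66 across the 2971 sites of all 3 lists. These points are sites within 1 pair of libraries, not replicates, both lists begin at a score of 50, and the class spans a narrower range of HD3 scores. Of the 5230 sites called in both lines, 46 were in the lowest 25% by HD3 score and the highest 25% by DT40 score. The class held 33 of these (71.7%), and 6 of the 56 sites placed the other way round (10.7%). It held 43.2% of the 5230 sites, with 1032 members in the lowest 25% by HD3 score and 50 in the highest.

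At like HD3 score, sites without an induced call also had lower scores in DT40, whose list the rule used as well. The 5230 sites called in non-induced HD3 and DT40, of which 43.2% (interval 41.8 to 44.5; background for this rule 43.2%) had no induced call, were divided into 20 classes of equal size by HD3 score. The induced list is the shortest, and with the 4820 top-scored peaks of each list the class held 287 sites and the share without an induced call was 13.0%. A DT40 score above the median of its own class was found for 42.7% of the sites without an induced call (964 of 2259, interval 40.6 to 44.7) and for 55.4% of the sites of all 3 lists (interval 53.6 to 57.2), with 49.9% over all of them. The median DT40 score was lower without an induced call in all 16 classes that held more than 20 such sites, at 64.3% to 96.5% of the value for sites of all 3 lists. Within those classes the median HD3 scores of both kinds of site differed by between -4.22 and 0.39 (without minus with an induced call), so a small difference in HD3 score remained. The DT40 score had passed the same minimum for every site compared, but it comes from a list that the rule used, so this is a description.

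In the class with HD3 scores from 55.17 to 61.54, the median DT40 score was 84.0 at 218 sites without an induced call and 123 at 43 sites with one. In the class from 115.14 to 124.6 it was 118 at 128 sites and 151 at 133 sites. In the class from 188.62 to 214.7 it was 180.4 at 39 sites and 227 at 223 sites. Seen the other way, no induced call was made at 49.4% (interval 47.5 to 51.4) of the sites with a DT40 score at or below the class median and at 36.9% (interval 35.1 to 38.8) of those above it. The share was lower above the median in each of the 19 classes that held any site without an induced call.

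**Figure D2:**
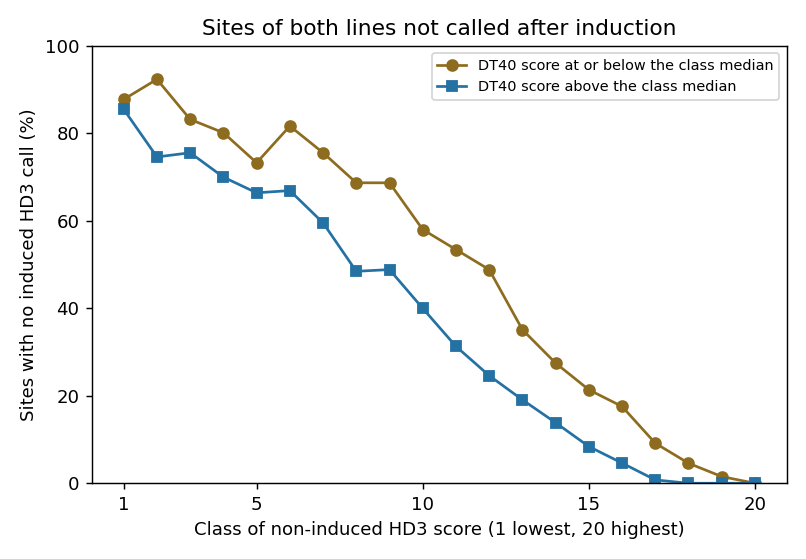
The y axis gives the percentage of sites of both lines with no induced HD3 call, the x axis 20 classes of equal size by non-induced HD3 score, and the symbols divide each class at its median DT40 score. Sites with the higher DT40 scores lie lower in each of the 19 classes that hold any such site, and both lines fall to 0 in the highest class.

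The share was highest where both scores were low and lowest where both were high. Among sites in the lowest 25% by both scores, 83.7% (527 of 630, interval 80.5 to 86.5) had no induced call. Among those in the highest 25% by both, 0.77% (7 of 912, interval 0.31 to 1.58) had none. With HD3 scores in the third class of 4, the share was 47.7% (interval 41.0 to 54.5) for the lowest DT40 scores and 12.2% (interval 8.47 to 16.7) for the highest. The fall was not even: between neighbouring classes of DT40 score the share went from 67.1% to 71.7% (33 of 46 sites, interval 56.5 to 84.0) among the lowest HD3 scores, and from 10.7% (6 of 56 sites) to 16.7% (14 of 84) among the highest.

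Sharing of HD3 sites with DT40 was likewise compared at like HD3 score. Without regard to score, 64.5% (interval 62.9 to 66.1) of the non-induced HD3 sites that lacked an induced call were called in DT40, which are the 2259 sites of the class, and 83.5% (interval 82.2 to 84.7) of those with an induced call. In the 17 HD3 score classes with more than 20 sites of each kind, the share was 64.4% without an induced call and 74.8% with one, when both were weighted by the sites without. The share without an induced call was the lower in 14 of the 17 classes. The rule chose the sites by these same calls, so this too is a description. In the class with HD3 scores from 58.09 to 62.81 it was 58.3% of 295 sites against 79.3% of 58 sites. From 133.75 to 148.79 it was 80.0% of 130 sites against 80.3% of 223, and from 148.79 to 167.84 it was 85.4% of 96 against 82.9% of 258.

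**Figure D3:**
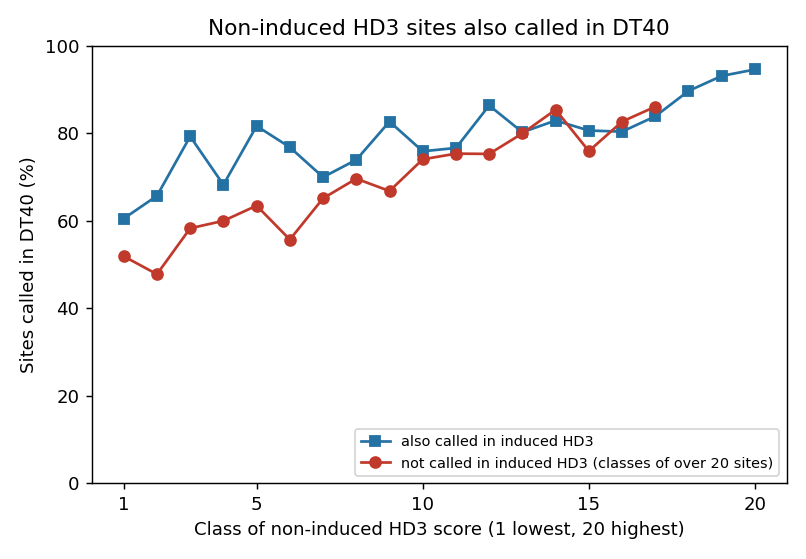
The y axis gives the percentage of non-induced HD3 sites called in DT40 and the x axis 20 classes of equal size by HD3 score, for sites with and without an induced HD3 call. The curves are apart at low scores, with 79.3% against 58.3% in the third class, and from the thirteenth class on, where they stand at 80.3% and 80.0%, neither is the lower throughout.

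HD3 peaks of the class were slightly long for their score. In 20 classes of all non-induced HD3 sites by score, 53.2% of the class (interval 51.1 to 55.3) had an HD3 peak longer than the median of its score class, against 46.2% (interval 44.4 to 48.0) of sites in all 3 lists. Over all 7063 non-induced HD3 sites the share was 49.6%. The shares were 54.9% (interval 52.1 to 57.7) for sites of non-induced HD3 alone and 42.1% (interval 38.1 to 46.2) for sites of both HD3 lists. Sites without an induced call thus had the higher share whether or not DT40 shared them. DT40 peaks of the class were also longer than the median of their DT40 score class in 55.8% of cases (interval 53.7 to 57.8), against 47.6% (interval 45.8 to 49.4) for sites of all 3 lists and 47.3% (interval 45.6 to 48.9) for sites of DT40 alone.

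The 10 sites of the class with the highest HD3 scores, between 279 and 363, lay on 10 different chromosomes. The first, on chromosome 28 at 815914 to 818960, had an HD3 score of 363 and a DT40 score of 122. Its HD3 peak of 3047 bp was long, and the midpoint of its DT40 peak, 1204 bp long, lay 490.5 bp from the midpoint of the HD3 peak. The second, on chromosome 15 at 5405228 to 5406538, scored 349 in HD3 and 319 in DT40. The third, on chromosome 12 at 6118211 to 6119478, scored 335 and 279, and its midpoints were 3 bp apart. These neighbours in the ranking differed widely in DT40, where the chromosome 28 site was only the 858th of the class and the others the 60th and the 96th.

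The fourth site lay on chromosome 26 at 2489415 to 2490833, with scores of 308 in HD3 and 127 in DT40. The fifth, on chromosome 25 at 514322 to 515716, scored 308 in HD3 and 161 in DT40. The sixth, on chromosome 19 at 6345403 to 6347913, held 2 DT40 peaks under an HD3 peak of 2511 bp and scored 302 in HD3 and 187 for the higher DT40 peak. The ninth, on chromosome 7 at 27683230 to 27685260, had the same make-up, with an HD3 peak of 2031 bp and scores of 282 and 167. Of the 10 sites, 3 thus had HD3 peaks longer than 2000 bp. Such a length was found at 3.32% of the whole class (interval 2.62 to 4.14) and 4.27% of sites in all 3 lists. Peaks of high score were longer in general. The median HD3 peak length was 1280 bp at the 225 sites of the class highest by HD3 score and 1201 bp at the others.

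The seventh lay on chromosome 4 at 1206295 to 1207389 (scores 297 in HD3 and 204 in DT40). The eighth was on chromosome 1 at 78849384 to 78850648 (290.4 and 216), and the tenth on chromosome 9 at 22961127 to 22962559 (279 and 146). The nearest induced peak was between 8.40 and 100.2 kb away from these 10 sites, with a median of 29.4 kb.

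Only 7 sites of the class stood in the highest 25% of the 5230 sites by both scores, and they are named here after their values were seen. The sites on chromosome 15 at 5405228 and chromosome 12 at 6118211 given above are among them. On chromosome 1, the site at 169508183 to 169510730 scored 278 in HD3 and 402 in DT40, and the nearest induced peak was 200.0 kb away. Chromosome 27 held a pair of these sites, at 4072834 to 4074308 (219 in HD3 and 305 in DT40) and at 4639001 to 4640756 (241 and 835). The remaining ones were on chromosome 17 at 3547964 to 3549230 (243 and 289) and on chromosome 23 at 2163778 to 2164914 (216 and 270). The nearest induced peak lay 239.8 kb from the chromosome 17 site and 20.8 kb from the chromosome 23 site.

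The 5 sites with the highest DT40 scores differed widely in HD3. The first, on chromosome 1 at 193866922 to 193867962, scored 1181 in DT40 and 198 in HD3, and its DT40 peak of 1041 bp was longer than its HD3 peak of 886 bp. The second was the site on chromosome 27 at 4639001, with 835 in DT40 and 241 in HD3. The third, on chromosome 1 at 193541401 to 193542322, scored 694 in DT40 and 84.5 in HD3, and a site of DT40 alone lay 46 bp from it. The fourth, on chromosome 24 at 5472039 to 5473598, scored 626 and 65.1. The fifth, on chromosome 21 at 5348494 to 5349783, scored 598 and 106. By HD3 score these 5 sites ranked between 24th and 1679th in the class, and 4 of them had a site of DT40 alone as their nearest neighbour.

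The longest merged site, on chromosome 1 at 139254352 to 139259907, was the reverse of the usual arrangement, with an HD3 peak of 2998 bp (score 50.8) inside a DT40 peak of 5556 bp (score 556). In the next 4 the HD3 peak set the length. They lay on chromosome 24 at 5535764 to 5539843, chromosome 1 at 181615909 to 181619186, chromosome 5 at 48492138 to 48495244 and chromosome 6 at 29752179 to 29755225. Their DT40 peaks were between 652 and 848 bp long. On chromosome 24 the midpoints were 1256 bp apart, the largest distance in the class.

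Near misses were about as common as among other sites without an induced call. The nearest induced peak was a median of 44.3 kb from the edge of the site (quartiles 17.3 and 101 kb), and the closest was 228 bp away. An induced peak lay within 1000 bp of 42 sites (1.86%, interval 1.34 to 2.50), against 1.37% of sites in non-induced HD3 alone and 2.03% in DT40 alone. One lay within 5 kb of 196 (8.68%, interval 7.55 to 9.91), where the background over all 7009 sites without an induced call was 8.57%. The 5 closest were on chromosome 18 at 6377741 to 6379691, chromosome 1 at 130661043 to 130662271, chromosome 14 at 860725 to 861965, chromosome 23 at 5490820 to 5491886 and chromosome 5 at 7446762 to 7447950, with gaps of 228 to 343 bp. At each of these the neighbouring site was called in all 3 lists, so they sat beside a shared site. Among sites of all 3 lists, the 5 with the smallest overlap between the induced peak and another peak had overlaps of 330 to 373 bp. The median overlap was 660 bp, and 0 of the 2971 sites had an overlap under 100 bp. At each of the 5 the overlap was the whole length of a short induced peak, so they were not borderline. The smallest overlap was on chromosome 23 at 157891 to 158717, where the induced peak had a score of 53.4 and the other peaks 98.0 in HD3 and 174 in DT40.

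The lower score limit also bounded the class. The 3 sites with the lowest HD3 scores were on chromosome 4 at 72411204 to 72412226 (50.03), chromosome 12 at 19701596 to 19702750 (50.05) and chromosome 17 at 8068315 to 8069533 (50.05). Their DT40 scores were 69.5, 80.6 and 301. The last was 72nd of the class by DT40 score while tied at the second lowest HD3 score.

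Sites of the class were nearer to induced peaks than sites of non-induced HD3 alone. An induced peak lay within 100 kb of 74.8% of the class (interval 72.9 to 76.5), of 64.1% of the sites in non-induced HD3 alone (interval 61.3 to 66.7) and of 70.5% of those in DT40 alone (interval 68.9 to 72.0). The median distances were 44.3, 59.6 and 48.6 kb. In the same order, the median gap to the nearest site of any kind was 14209, 18450 and 11886 bp. Sites of the class were thus also nearer to other sites in general than sites of non-induced HD3 alone. Of the 3808 intervals between neighbouring sites with an induced call, 1382 (36.3%, interval 34.8 to 37.8) held at least 1 site of the class, 33 held 5 or more, and the fullest held 9. What the number of sites alone would give, or other kinds of site, was not worked out. These interval counts are therefore no sign of how the class is arranged.

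**Figure D4:**
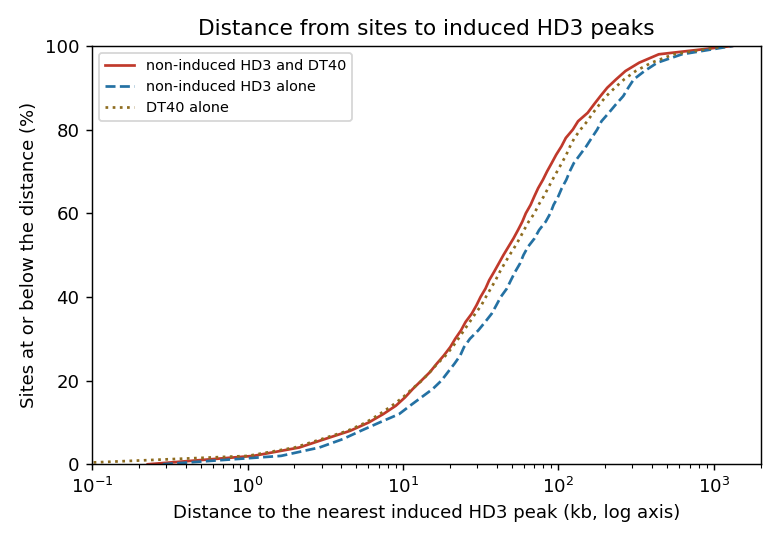
The y axis gives the percentage of sites at or below a distance and the x axis the distance to the nearest induced HD3 peak (kb, log axis), for sites of the class, of non-induced HD3 alone and of DT40 alone. The median of the class is 44.3 kb, left of the 59.6 kb for non-induced HD3 alone.

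The class was spread among the other sites. Another site lay within 10 kb of 39.2% of its members (interval 37.2 to 41.2), against 40.5% of sites in all 3 lists (interval 38.7 to 42.3), 33.4% in non-induced HD3 alone (interval 30.8 to 36.1) and 45.6% in DT40 alone (interval 44.0 to 47.3), with 40.5% as the background over all sites. The nearest site was one of all 3 lists in 30.8% of cases (interval 28.9 to 32.7), one of DT40 alone in 28.6% (interval 26.8 to 30.6) and another of the class in 23.3% (interval 21.6 to 25.1). In the same order, these kinds made up 27.4%, 32.3% and 20.8% of all sites. For sites of all 3 lists, the nearest site was one of DT40 alone in 27.7% (interval 26.1 to 29.3). Counting the neighbours on both sides, 22.6% were of the class itself, which made up 20.8% of all sites.

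Most members, 1359 of 2259, stood singly between sites of other classes, 307 pairs followed each other directly, and the longest runs held 5 or 6 sites. The class made up 20.8% of all sites, and the counts that this share alone would give were not worked out. The counts are therefore no sign of spacing. The run of 6 lay on chromosome 1 at 169274503 to 169414185, over 139.7 kb, with HD3 scores from 50.8 to 128 and DT40 scores from 103 to 287. There were 7 runs of 5, and the first of these, on chromosome 1 at 50555884 to 50633619, spanned 77.7 kb with HD3 scores from 52.8 to 176. The next, on chromosome 5 at 27382286 to 27558864, spanned 177 kb with HD3 scores from 54.1 to 106. The 500 kb window richest in the class contained the first run of 5, on chromosome 1 at 50500001 to 51000000. It held 11 such sites among 22, with 4 sites of all 3 lists. Windows with 9 sites of the class lay on chromosome 5 at 16000001 to 16500000, where 15 of 31 sites were of DT40 alone, and on chromosome 14 at 4000001 to 4500000, where 1 of 17 was. Another window also held 9. Of the 978 windows with any site of the class, 384 held 1.

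All 25 chromosomes of the rule held at least 1 site of the class. It was denser on small chromosomes, with 2.45 sites per Mb (interval 2.31 to 2.60) on macrochromosomes 1 and 3 to 5. The density was 3.28 (interval 2.99 to 3.59) for the intermediate chromosomes 6 to 10, and 4.90 (interval 4.54 to 5.29) for the microchromosomes 12 to 19 and 21 to 28. The ratio of micro- to macrochromosomes was 2.00 (interval 1.82 to 2.21), against 2.58 (interval 2.37 to 2.80) for sites in all 3 lists. Lists shortened to the same length by score gave 3.13 (interval 2.38 to 4.11) and 3.10 (interval 2.80 to 3.44). Shortening also raised the lowest score kept in the longer lists. A lower score limit of 100 in all 3 lists gave 2.83 (interval 2.52 to 3.18) and 3.13 (interval 2.76 to 3.55). That limit also removed induced peaks scored below 100, so sites with such a peak entered the class. With the limit in non-induced HD3 and DT40 only, the ratios were 2.77 (interval 2.26 to 3.39) and 3.01 (interval 2.74 to 3.31). What moved the ratios was not tested. Of the sites of both lines, 46.0% (interval 44.0 to 48.0) had no induced call on macrochromosomes. This share was 42.3% (interval 39.4 to 45.3) for intermediate chromosomes and 39.8% (interval 37.5 to 42.2) for microchromosomes.

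HD3 scores were higher on microchromosomes than on the larger chromosomes. The median HD3 score of sites in all 3 lists was 180.4 on macrochromosomes, 180.4 on intermediate chromosomes and 206 on microchromosomes, and that of the class was 82.8, 82.9 and 87.2. Between macro- and microchromosomes, within 4 classes of HD3 score the order of the shares was not kept. In the lowest class, 77.6% of sites had no induced call on macrochromosomes (interval 74.3 to 80.7) and 83.0% on microchromosomes (interval 78.6 to 86.9). In the second the shares were 63.0% and 62.8%, in the third 29.5% (interval 25.9 to 33.4) and 25.1% (interval 21.1 to 29.4), and in the highest 3.42% and 4.90%.

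By single chromosome, the share of sites of both lines without an induced call ran from 29.2% on chromosome 27 (19 of 65, interval 18.6 to 41.8) to 53.1% on chromosome 28 (43 of 81, interval 41.7 to 64.3), leaving out chromosome 16 with 5 sites. The intervals of chromosomes 19 (30.2%, interval 22.0 to 39.4), 26 (30.8%, interval 22.1 to 40.6) and 27 lay below the pooled 43.2%, and that of chromosome 1 (46.7%, interval 43.5 to 50.0) above it. The other 20 chromosomes with at least 20 sites had intervals that included it. Chromosome 28 also had the highest density of the class, 9.08 sites per Mb (interval 6.57 to 12.2). HD3 scores differed between these chromosomes. In 5 Mb segments, the median HD3 score of sites of both lines was 144 and 207 on chromosome 19. In the first 5 Mb it was 150 on chromosome 26, 206 on chromosome 27 and 122 on chromosome 28. The shares are not adjusted for HD3 score or for the number of chromosomes compared, and what sets them was not tested.

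**Figure D5:**
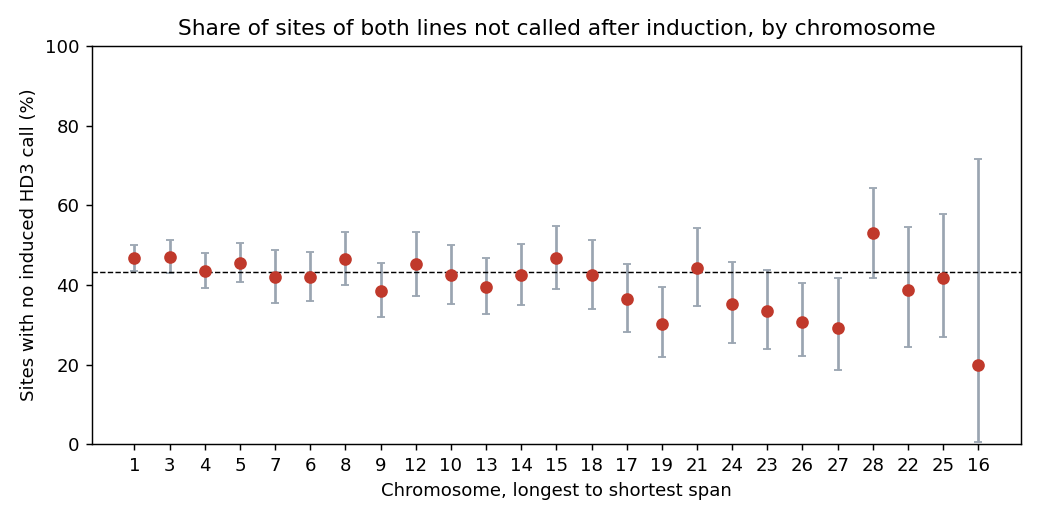
Points give, for each chromosome from the longest to the shortest span (x), the percentage of sites of both lines with no induced HD3 call (y), with exact 95% intervals as bars; the dashed line is the pooled 43.2%. Chromosomes 19, 26 and 27 lie near 30% and chromosome 28 at 53.1%. HD3 score is not taken into account.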

How the data were processed

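CTCF ChIP-seq peak lists of non-induced HD3, induced HD3 and DT40 cells were used, 1 library each; the HD3 input was not used here. The submitters' processing notes name CASAVA 1.8.2, Bowtie2, MACS and the build galGal4. Parameters and controls were not given in the sources used here. Each deposited row gives a position and the score that the authors' caller assigned; peaks were not pooled over libraries.

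Peaks sharing at least 1 bp were merged into sites. Where a list gave several peaks to a site, the highest-scored one was used. Classes of like score have equal numbers of sites. Shares have exact Clopper-Pearson intervals, densities exact Poisson intervals, and chromosome spans are the largest peak end in any list. With 1 library per group no test was run. Depth is unknown, which limits what a missing call can show. Named sites were the 10 highest in HD3, the 5 highest in DT40, the 5 longest, the 5 nearest to an induced peak and the 3 lowest in HD3. The 5 sites of all 3 lists with the smallest induced overlap, the 3 richest 500 kb windows and the 3 longest runs were also named. The class, these rules and the comparisons were chosen with earlier results of these data known. Chromosomes 2, 11, 20, Z and the smaller sequences entered only as an alternative. Merging by overlap and by bridging was tried on simulated sites that stood well apart, so crowded sites were not covered. The like-score step was tried on simulated scores without a lower DT40 limit. Software comprised SciPy 1.17.1, pandas 2.3.3, NumPy 2.4.6, matplotlib 3.10.9 and Python 3.11.15.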

Additional observations from a re-analysis of the deposited data

How the results depend on the processing

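No paired analysis was possible because there is a single library per group, which also leaves no replicate to omit. The like-score share (42.7% of the class above the DT40 median of its HD3 score class) and its alternatives were chosen after the data were seen. Of 85 values under alternatives, 54 stayed within the interval of the main value or within 1.5 times the main count, and in the 8 planned settings the median DT40 score was lower for the class than for sites of all 3 lists in 4 of 4 classes of HD3 score. Most of the rest came under score limits or equal list lengths. In the order of class size, share of sites of both lines, micro- to macrochromosome ratio, share with a neighbour within 10 kb, median HD3 score, median DT40 score and rho, a lower score limit of 100 for every list gave 1486, 53.6%, 2.83, 29.8%, 149.7, 182 and 0.34. The 1486 include sites that had an induced peak scored below 100, since the limit removed such peaks. With the induced list kept whole, the same limit in non-induced HD3 and DT40 only gave 518, 18.7%, 2.77, 29.9%, 129.7, 157 and 0.19. The 4820 top-scored peaks of each list gave 287, 13.0%, 3.13, 24.4%, 138, 199.9 and 0.12. The like-score share was 35.5% with the limit in those lists only and 36.6% with equal numbers. A reciprocal overlap of 50% gave a share of 40.6%, a median DT40 score of 117, a rho of 0.35 and a midpoint distance of 37.5 bp. Bridging gaps of up to 1000 bp gave 35.1% with a neighbour within 10 kb. With all sequences that share was 41.7%, the median DT40 score 115 and rho 0.21. Higher medians, and fewer sites where the induced list was kept whole, follow from a higher score limit by construction; what moved the other values was not tested.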

Other observations

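A stretch of chromosome 1 had high DT40 scores, and was singled out after its values were seen. Between 165000001 and 180000000 the class had 51 sites, with a median DT40 score of 214 (quartiles 137 and 307), against 97.4 (quartiles 73.4 and 141) for the 387 sites on the rest of the chromosome. The median HD3 scores were 80.9 and 82.7. Sites of all 3 lists there had a median DT40 score of 478 against 196 elsewhere on the chromosome, and HD3 scores of 225 against 182. Sites of DT40 alone numbered 13.7 per Mb in the stretch and 3.76 per Mb outside it, and sites of non-induced HD3 alone 0.40 and 1.56 per Mb. Other parts of the chromosome were also crowded with sites of DT40 alone: the 5 Mb from 190000001 held 95 and those from 135000001 held 74, against 70, 56 and 80 in the 5 Mb segments of the stretch. Of the 225 sites of the class with the highest DT40 scores, 26 lay in the stretch, and 5 of the 10 sites of the class in the 5 Mb from 190000001 were also among the 225. The share of sites of both lines without an induced call was 44.0% inside (interval 34.8 to 53.5) and 47.1% outside (interval 43.7 to 50.6). It was uneven inside: the 5 Mb from 165000001 had 58.0% (29 of 50, interval 43.2 to 71.8). Those from 170000001 had 37.0% (10 of 27, interval 19.4 to 57.6), and those from 175000001 had 30.8% (12 of 39, interval 17.0 to 47.6). Without the stretch, the like-score share above the DT40 median was 42.3%.

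Sites of the class with high DT40 scores more often had a site of DT40 alone as their nearest neighbour; the difference was not tested. Among the 225 sites highest by DT40 score, the nearest site was one of DT40 alone in 41.3% (interval 34.8 to 48.1), against 27.2% (interval 25.3 to 29.2) of the other 2034. Among the 225 highest by HD3 score it was 25.8% (interval 20.2 to 32.0). Sites of DT40 alone made up 32.3% of all sites, and were nearest to 27.7% of sites in all 3 lists. Sites of all 3 lists were not divided by DT40 score here, so the pattern is not shown to be particular to the class. The 225 highest by DT40 score include the 26 in the stretch of chromosome 1, which was crowded with sites of DT40 alone.

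Over 5 Mb segments with at least 20 sites of both lines, the share without an induced call had a median of 44.8% (quartiles 37.2 and 50.0). It ran from 18.2% on chromosome 23 from 5000001 (4 of 22) to 70.8% on chromosome 21 from 5000001 (17 of 24), where the median HD3 scores were 214 and 98.8. Of the 122 segments, 6 had an interval below the pooled share and 7 above it.

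On the chromosomes left out of the class, sites of both lines without an induced call made up 51.2% on chromosome 2 (389 of 760, interval 47.6 to 54.8), 52.3% on chromosome 11 (91 of 174, interval 44.6 to 59.9), 41.4% on chromosome 20 (77 of 186, interval 34.2 to 48.8) and 44.0% on Z (118 of 268, interval 38.0 to 50.2).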
